A study of Drosophila melanogaster with 24 samples.

Results

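The 5 genes described here encode enzymes that break down phenylalanine, tyrosine and glycine in Drosophila melanogaster. They are Hn, CG11796 (now Hpd), hgo, CG6188 (now Gnmt) and CG3999, and they were taken by name from the 16727 genes of the count tables. They were chosen by their differences in count between HFD and RD in these same libraries, so every value that compares HFD with RD is given for them as a description, without a test. Sex and tissue differences were not themselves part of that choice and were tested, except that the higher level of CG6188 in male than in female bodies was also known beforehand and is described without a test. The tests of sex and tissue reuse the libraries of that choice, so they are not fully independent of it on either diet.

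RNA was sequenced from heads and from headless bodies of adult w1118 flies, a white-eyed laboratory strain that served in every group, and no transgene or drug was involved. Males and females were kept on the regular diet (RD) or on the high-fat diet (HFD), which was the same food with 20% coconut oil, for 7 days. The labels give an age of 5 to 7 days. In the paper the 7 days began after the flies had already spent a day as adults, which does not match the labelled age. Each of the 8 combinations of sex, tissue and diet had 3 libraries, which made 24 libraries, and the labels describe each as a biological replicate made from about 100 heads or from 10 bodies. A library is therefore a pool, and the labels do not say whether the pools came from separate vials, so p-values measure the spread between pools. Male and female libraries were deposited in separate tables, and sex and any batch that goes with the table cannot be told apart.

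In animals, phenylalanine is hydroxylated to tyrosine, tyrosine is transaminated, and the product is oxidized by way of homogentisate to fumarate and acetoacetate, which feed energy metabolism. Glycine is either cleaved in mitochondria, where its carbon is passed to folate, or methylated to sarcosine at the expense of S-adenosylmethionine, the general methyl donor. In insects most of these steps are known from the fat body, the counterpart of liver and adipose tissue, and tyrosine is also the source of dopamine and of the pigments and cross-links of the cuticle.

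The order of the enzymes is given here with their positions in genome build dm6, which the submitters' processing notes name. Hn (Henna, FBgn0001208), phenylalanine hydroxylase, makes tyrosine from phenylalanine and lies on the plus strand at 3L:7760453-7763166. CG11796 (FBgn0036992), 4-hydroxyphenylpyruvate dioxygenase, makes homogentisate and lies on the minus strand at 3L:20438166-20439872. The gene hgo (FBgn0040211), homogentisate 1,2-dioxygenase, opens the ring of homogentisate and lies on the plus strand at 2L:11136393-11138565, with 8 exon blocks. CG6188 (FBgn0038074), glycine N-methyltransferase, lies on the plus strand at 3R:12674608-12676084. CG3999 (FBgn0037801), the P protein that decarboxylates glycine in the glycine cleavage system, lies on the plus strand at 3R:10251518-10255268. Their exons cover 2115, 1518, 1445, 990 and 3197 bases in the order given, and these lengths equal the gene lengths in the count tables. CG11796 shares 141 exon bases with CtIP and 273 with a long non-coding RNA on the opposite strand, and CG6188 shares 75 with CG43630. The strand setting of the counting is not given in the sources used here, so reads of these overlaps cannot be told apart.

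Levels are TMM-normalized CPM, the counts of a gene scaled to a library of 1 M counts (M for mega), where TMM is edgeR's scaling between libraries. The libraries held 13.4 to 25.7 M counts on genes, and the 5 genes had between 9 (CG6188) and 9626 (Hn) counts in a library. The labelled tissues were checked with marker lists. The 6 photoreceptor markers summed to 41628 to 70576 CPM in heads and to 98.5 to 427 CPM in bodies, apart from 2387 CPM in male body RD 3. The 4 testis markers summed to 1719 to 2638 CPM in male bodies and to at most 1.23 CPM in females, and the 5 ovary markers to 1381 to 1935 CPM in female bodies and to at most 14.2 CPM in males. Male head HFD 2 and male body HFD 2 stood apart, as the mean correlation of their log2 levels with the other libraries of their own group was 0.950 and 0.945, and with those on RD 0.991 and 0.976. Male head HFD 3 had a similar value within its group (0.951) but 0.945 with RD, the other male HFD libraries had 0.966 to 0.971 within their group and 0.970 to 0.974 with RD, and all female values lay between 0.990 and 0.997. Some of the results that rest on them are given with and without them. No pair of libraries in a group differed by less than sampling noise.

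**Figure D1:**
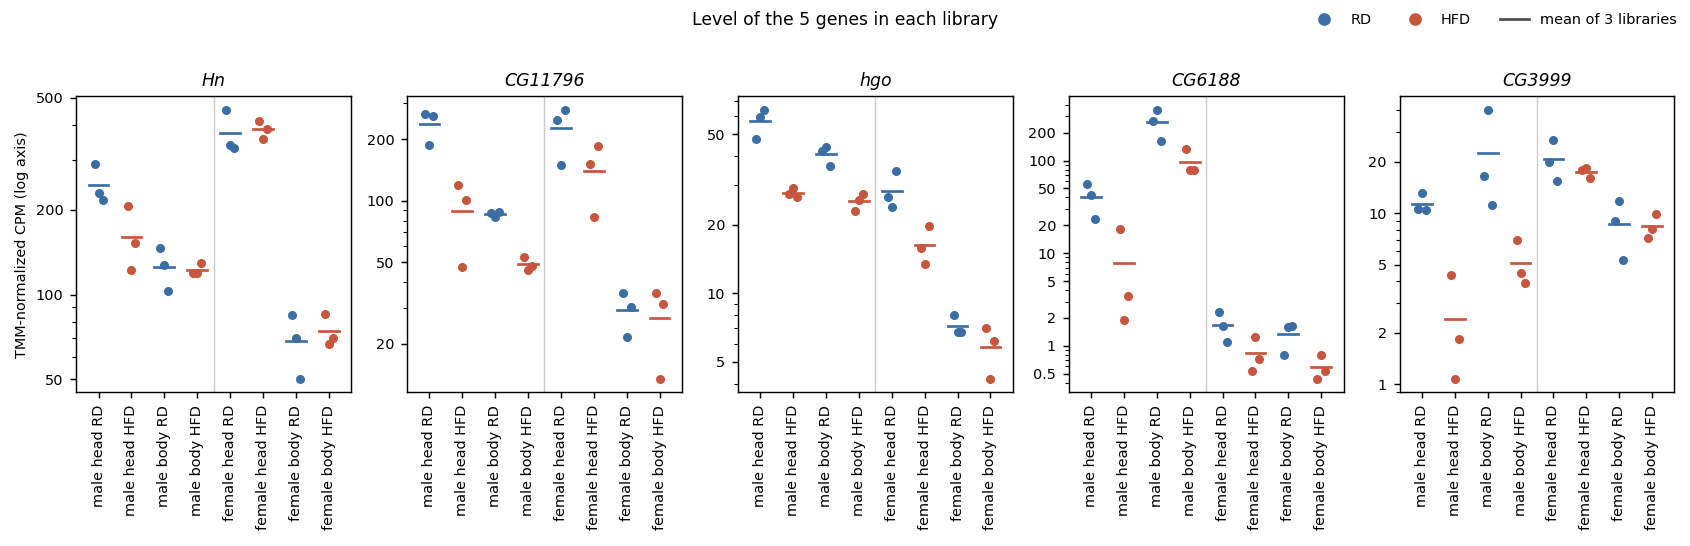
Level of the 5 genes in each of the 24 libraries, in TMM-normalized CPM on a log axis, by sex, tissue and diet. Points are libraries and bars are means of 3 libraries. CG6188 runs from 0.438 CPM in a female body library to 353 CPM in a male body library, whereas the other 4 genes stay within a range of about 10-fold between condition means (5.64 for Hn to 9.86 for hgo).

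Hn was a gene of the head, and of female heads most. Its level was 453, 339 and 331 CPM in the female heads on RD and 413, 358 and 387 CPM in those on HFD. In male heads it was 290, 229 and 216 CPM on RD and 206, 122 and 152 CPM on HFD. Every male head library was thus below every female head library, and within male heads every HFD library was below every RD library. Bodies held less. Male bodies had 146, 127 and 103 CPM on RD and 120, 119 and 129 CPM on HFD, and female bodies had 50.1 to 84.9 CPM on RD and 66.7 to 85.5 CPM on HFD. The 2 diets overlapped in female heads, male bodies and female bodies.

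CG11796 was high in the heads of both sexes on RD, at 267, 187 and 261 CPM in males and 249, 150 and 278 CPM in females. On HFD the male heads had 119, 47.6 and 101 CPM and the female heads 151, 83.5 and 186 CPM. The diets did not overlap in male heads but did in female heads. Male bodies were the most even groups, at 87.0, 83.6 and 87.9 CPM on RD and 53.2, 45.9 and 48.1 CPM on HFD. Female bodies had the lowest levels, at 35.5, 21.7 and 30.1 CPM on RD and 35.5, 13.4 and 31.4 CPM on HFD. The library with replicate number 3 was the lowest of its group in 6 of 8 conditions, and in all 4 conditions of females. The labels do not say what the numbers share across groups.

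In the case of hgo, males were above females in each tissue and diet. On RD the male heads had 47.6, 59.3 and 64.1 CPM and the male bodies 42.1, 44.0 and 36.4 CPM. On HFD these became 27.3, 29.0 and 26.6 CPM in heads and 23.0, 25.6 and 27.3 CPM in bodies. The gap between the diets was wide in both male tissues compared with the spread within a group. Female heads had 26.5, 23.9 and 34.5 CPM on RD and 15.8, 13.4 and 19.8 CPM on HFD, again without overlap. Female bodies were lowest, with 8.0, 6.77 and 6.75 CPM on RD and 7.01, 4.19 and 6.14 CPM on HFD, and there the diets overlapped.

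CG6188 was high in males, above all in their bodies, and low in females. Male bodies on RD had 270, 353 and 162 CPM and those on HFD 132, 79.7 and 79.0 CPM. Male heads on RD had 55.2, 42.0 and 23.1 CPM, and those on HFD had 18.3, 1.88 and 3.47 CPM. The diets did not overlap in either tissue of males, and male head HFD 2, a library that stood apart, was the highest of its group by a wide margin. All 12 female libraries lay between 0.438 and 2.31 CPM, on 9 to 49 counts each, with 1.09 to 2.31 CPM in heads and 0.796 to 1.64 CPM in bodies on RD. On HFD the females had 0.537 to 1.23 CPM in heads and 0.438 to 0.791 CPM in bodies. The mean of male bodies on RD was 445-fold that of female bodies on HFD, the widest range of the 5 genes.

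CG3999 was, per length, the least abundant of the 5 genes in males, with mean levels of 1.72 to 10.7 TPM, the CPM equivalent after division by gene length. In males on RD it had 10.6, 13.2 and 10.5 CPM in heads and 16.5, 40.3 and 11.2 CPM in bodies, where RD 2 was far above the others. In males on HFD it had 4.35, 1.08 and 1.83 CPM in heads and 6.98, 4.47 and 3.89 CPM in bodies. Every male HFD library was thus below every male RD library of its tissue. Females showed no such gap, with 15.4 to 26.8 CPM on RD and 16.2 to 18.5 CPM on HFD in heads. Female bodies had 5.30 to 11.8 CPM on RD and 7.16 to 9.96 CPM on HFD.

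The order of the condition means differed between the genes. For Hn it ran from female heads through male heads and male bodies to female bodies, and the neighbours that overlapped were the female heads on either diet, male head HFD and male body RD, the male bodies on either diet, and the female bodies on either diet. For CG11796 the 4 head conditions and male body RD formed a chain of overlapping neighbours, followed without overlap by male body HFD and then by the female bodies. For hgo, male head RD, male body RD and female head RD were separate from each other, and female head RD, male head HFD and male body HFD overlapped in turn. For CG6188 the order was male body RD, male body HFD, male head RD and male head HFD, the first 3 separate from their next neighbour, with all female conditions below and overlapping. For CG3999 male body RD, female head RD and female head HFD came first and overlapped in turn, and male head HFD came last.

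On HFD, compared with RD, the enzymes that follow phenylalanine hydroxylase and the glycine enzymes were lower in males in both tissues, and in females the difference was smaller or absent for most. The log2 fold difference of HFD over RD in male heads was -0.60 (SE 0.25) for Hn, -1.40 (SE 0.37) for CG11796, -1.02 (SE 0.19) for hgo, -2.33 (SE 0.84) for CG6188 and -2.20 (SE 0.50) for CG3999. In male bodies it was -0.04 (SE 0.16) for Hn, -0.81 (SE 0.13) for CG11796, -0.70 (SE 0.14) for hgo, -1.43 (SE 0.38) for CG6188 and -2.15 (SE 0.56) for CG3999. Hn was thus apart from the others in male bodies, where its levels on the 2 diets overlapped. In female heads the values were 0.04 (SE 0.12) for Hn, -0.69 (SE 0.30) for CG11796, -0.79 (SE 0.17) for hgo, -1.02 (SE 0.37) for CG6188 and -0.24 (SE 0.18) for CG3999. In female bodies they were 0.13 (SE 0.19), -0.10 (SE 0.34), -0.29 (SE 0.21), -1.16 (SE 0.39) and -0.03 (SE 0.30) in the same order, and CG6188 was below -1 in all 4 comparisons, on very few counts in females, where leaving out 1 library gave -0.71 in heads and -0.98 in bodies. With limma-voom the value of CG3999 in female bodies was 0.03. Other scalings moved the median of all genes in male heads to as low as -0.16, and relative to the median the male head values were -0.61 to -0.55 for Hn, -1.46 to -1.33 for CG11796, -1.02 to -0.99 for hgo, -2.77 to -2.22 for CG6188 and -2.33 to -2.13 for CG3999. In bulk tissue, fewer cells of a type and less RNA per cell cannot be told apart.

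**Figure D2:**
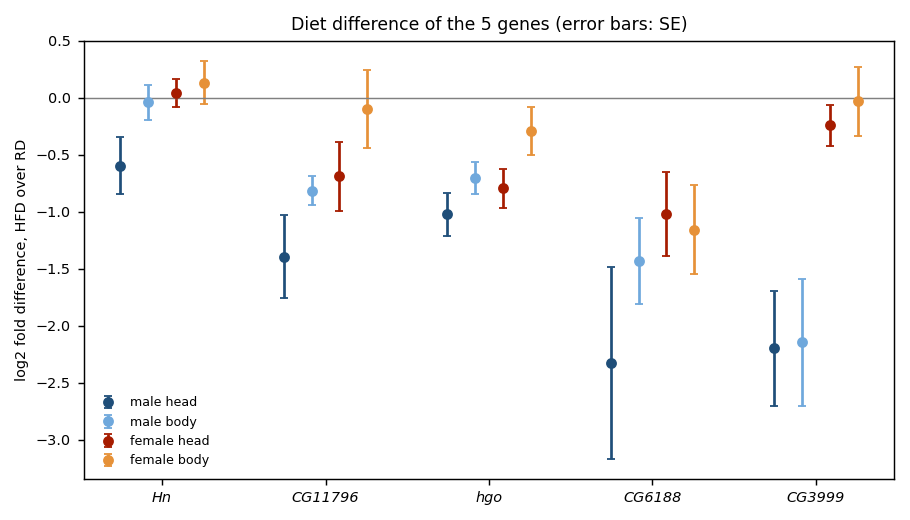
Log2 fold difference of HFD over RD for the 5 genes in each sex and tissue, with the SE from the model as error bars. CG3999 is near -2.2 in both male tissues and near 0 in females (-0.24 and -0.03), whereas CG6188 is at -1.02 and -1.16 in females.

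Every HFD library was below every RD library for 5 of the 5 genes in male heads, where this held for 4.08% of all genes tested. The count was 4 of 5 in male bodies (4.57% of all genes), without Hn, 1 of 5 in female heads (3.07%), namely hgo, and 0 of 5 in female bodies (4.08%). Without male head HFD 2 the count in male heads was again 5 of 5, beside 28.6% of all genes, and without male body HFD 2 it was 4 of 5 in male bodies, beside 27.9%. The diet contrast had chosen the genes, so nothing is read from these counts.

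Over all genes tested, edgeR's quasi-likelihood test with Benjamini-Hochberg adjustment called 0% between the diets in male heads, 0% in male bodies, 0.00983% in female heads and 0% in female bodies. At an unadjusted p under 0.05 there were 144, 490, 281 and 358 genes in the same order, DESeq2 called 9, 28, 15 and 7, and limma-voom 0, 0, 1 and 0. No test of the 5 genes is given for this contrast.

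Single libraries moved the size of these values in both sexes. Without male head HFD 2 the difference in male heads was -3.85 for CG6188 and -2.91 for CG3999. Without male body RD 2 the difference of CG3999 in male bodies was -1.37. Without male body HFD 2 the differences there were -2.51 for CG3999, -1.79 for CG6188 and -0.93 for CG11796. Hn in male heads ranged from -0.80 to -0.43 with any 1 library left out, CG11796 from -1.64 to -1.09 and hgo from -1.14 to -0.94. In female heads CG11796 ranged from -0.95 to -0.43, CG6188 from -1.43 to -0.71 and CG3999 from -0.41 to -0.01, and in female bodies CG11796 from -0.33 to 0.21 and CG3999 from -0.30 to 0.27.

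Markers of other tissues moved beside these values. In male heads all 6 fat body markers tested were lower on HFD, with a median log2 difference of -0.62 (-3.48 to -0.13) and 0 past the adjusted threshold. The sum of the 8 listed was 1964 to 3655 CPM on HFD and 2753 to 4259 CPM on RD. The list holds Lsp2, which the paper reports from these data as lower on HFD in both tissues of both sexes. In male bodies 5 of 7 fat body markers were lower, with a median of -0.14. In male bodies the 6 Malpighian tubule markers summed to 434 to 508 CPM on HFD and to 610 to 654 CPM on RD, with 5 of 6 lower and a median of -0.13. In female heads the fat body sums overlapped (5457 to 7082 CPM on HFD, 5386 to 8375 CPM on RD). Of the midgut markers, 3 of the 4 tested in male heads were lower on HFD, with a median of -0.74 and sums of 11.3 to 29.7 CPM on HFD and 19.6 to 49.6 CPM on RD. In male bodies 3 of 7 were lower (median 0.33), and their sum was highest in RD 2 (3440 CPM against 1372 and 2051) and in HFD 2 (5962 CPM against 1198 and 740), the libraries in which CG3999 and CG6188 were also highest in each group. All 6 photoreceptor markers were lower on HFD in male bodies (median -2.30). Their sum on RD was 2387 CPM in RD 3, against 105 and 103 CPM in RD 1 and RD 2. The part of these tissues, or of head RNA in male body RD 3, in the diet differences was not tested. The testis markers summed to 21.7 CPM in male head HFD 4 and to 2.91 to 6.36 CPM in the other male heads, and CG6188 in that library was 3.47 CPM.

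The neighbours of the 5 genes were taken by their place in the pathways, from lists drawn up with earlier results of these data known. CG1461, tyrosine aminotransferase, which precedes CG11796, had 373, 253 and 355 CPM in male heads on RD and 252, 146 and 225 CPM on HFD. It had 95.2 to 101 CPM in male bodies on RD and 74.0 to 79.2 CPM on HFD, so the diets were apart in both male tissues. Its log2 differences were -0.63 (SE 0.28) in male heads, -0.37 (SE 0.11) in male bodies, -0.23 (SE 0.13) in female heads and 0.24 (SE 0.20) in female bodies. Faa, fumarylacetoacetase, which ends the pathway, had 70.4 to 84.0 CPM in male heads on RD and 45.4 to 52.7 CPM on HFD (-0.64, SE 0.17). The maleylacetoacetate isomerase genes differed from each other, as GstZ2 had negative values in all 4 comparisons (-0.28 to -0.66) and GstZ1 had 0.09, -0.02, 0.06 and -0.28 in male heads, male bodies, female heads and female bodies.

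On the glycine side, CG6385, sarcosine dehydrogenase, which returns the product of CG6188 to glycine, had 12.7, 7.14 and 4.49 CPM in male heads on RD and 3.56, 0.269 and 1.31 CPM on HFD. Its log2 difference of -2.18 (SE 0.80) in male heads was close to that of CG6188, and in male bodies it was -1.04 (SE 0.50), with 2.89 to 4.14 CPM on RD and 0.843 to 2.99 CPM on HFD. The other parts of the glycine cleavage system differed less than CG3999. CG6415, its T protein, had -1.21 (SE 0.59) in male heads and -0.63 (SE 0.33) in male bodies, with overlapping diets. The H protein gene ppl had -0.52 (SE 0.26) and -0.07 (SE 0.15). Per length, in TPM, ppl was 16.1 times as abundant as CG3999 in male heads on RD and 53.4 times on HFD, and in female heads 16.4 and 19.0 times.

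Of the 46 other genes in 7 lists of connected pathways, 45 were tested, and 0 of 45 passed the adjusted threshold of edgeR in each of the 4 diet comparisons. An unadjusted p under 0.05 in edgeR was reached by 5, 4, 2 and 2 of 45 in male heads, male bodies, female heads and female bodies. The shares of all genes were 1.42%, 3.79%, 2.76% and 3.48% in the same order. DESeq2 called 0 of the 45 in each. Their median log2 difference was -0.52 in male heads and -0.24 in male bodies, beside -0.02 and 0.03 for all genes tested. It was -0.02 in female heads and 0.06 in female bodies, beside -0.01 and 0.00 for all genes. All 13 other genes of glycine, serine and one-carbon metabolism had negative values in male heads (median -0.81) and 12 of 13 in male bodies (median -0.37), against 8 and 3 of 13 in female heads and bodies. The 8 genes of the S-adenosylmethionine cycle had a median of -0.54 in male heads with 5 of 8 below 0, and the 9 genes of amine and cuticle pigment synthesis had a median of -0.23 with 6 of 9 below 0. That list holds genes that use tyrosine or its products, such as ple (tyrosine hydroxylase) and Ddc (dopa decarboxylase), and also Trh (tryptophan hydroxylase) and b, which makes beta-alanine.

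**Figure D3:**
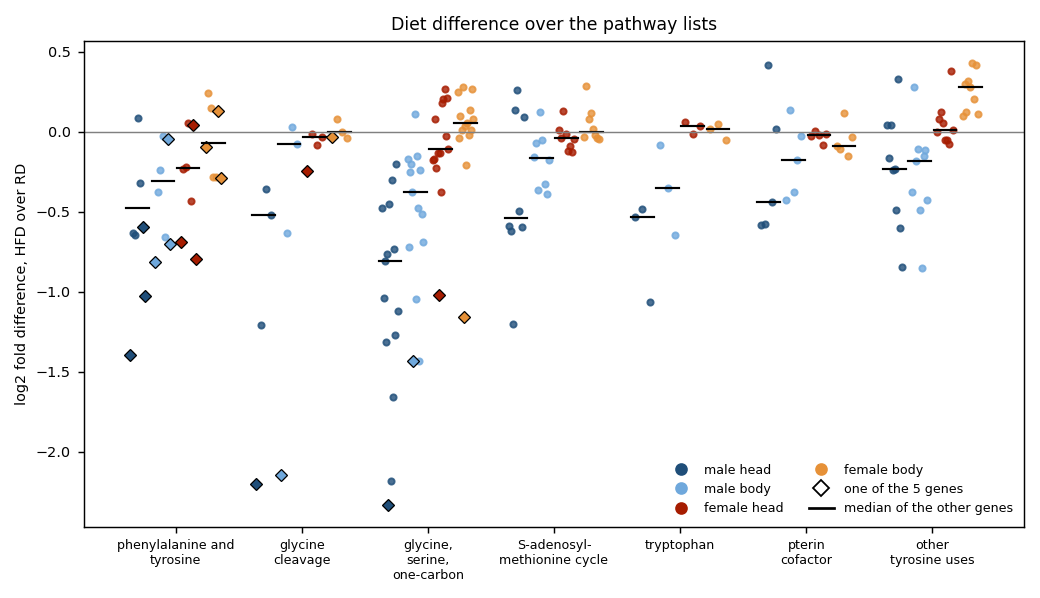
Log2 fold difference of HFD over RD for the genes of 7 pathway lists in each sex and tissue. Diamonds are the 5 genes, points the other genes and bars the median of the other genes, and the list at the right (other tyrosine uses) also holds Trh and b. In male heads the bar of each list is below 0 (-0.81 for glycine, serine and one-carbon genes), and in female bodies the bar of that list is at 0.06.

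Every HFD library was below every RD library for 10 of the 45 other pathway genes in male heads (aay, Ahcy89E, CG1461, CG6385, Eip55E, Faa, GstZ2, Sptr, v and yellow-f) and above for 0, against 4.08% and 2.76% of all genes. In male bodies 5 were below (CG1461, Faa, GstZ2, Pu and Sptr) and 1 was above (CG10623), against 4.57% and 3.91% of all genes. These comparisons used the scaling of the 6 libraries concerned, and on the scaling of all 24 libraries Faa overlapped in male bodies. In female heads 2 of 45 were below (CG9977 and GstZ2) and 1 above (Tdc2), against 3.07% and 3.70% of all genes. In female bodies 2 were below (GstZ1 and Sptr) and 1 above (b), against 4.08% and 5.30%. These female counts are near the shares of all genes, and nothing is read from them. Without the male HFD 2 libraries the counts below were 36 of 45 in heads and 28 of 45 in bodies, beside 28.6% and 27.9% of all genes.

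The question whether the sexes responded to diet to different degrees was put as an interaction, the male diet difference minus that of females. In heads it was -1.93 (SE 0.53) for CG3999, -1.30 (SE 1.05) for CG6188, -0.70 (SE 0.53) for CG11796, -0.64 (SE 0.29) for Hn and -0.23 (SE 0.27) for hgo. In bodies it was -2.08 (SE 0.66) for CG3999 and between -0.67 and -0.13 for the other 4. Without male head HFD 2 the values in heads were -2.83 for CG6188 and -2.66 for CG3999, and without male body RD 2 that of CG3999 in bodies was -1.30. Over all genes the edgeR test called 0% in heads and 0% in bodies, with 131 and 427 genes at an unadjusted p under 0.05 and 0 called by DESeq2 or limma-voom. As these values contain the diet contrast, they too are descriptions.

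The head difference minus the body difference was between -0.83 and 0.06 in males and between -0.58 and 0.16 in females for the 5 genes. The largest SE was 0.88 for CG6188 in males, and CG3999 in males changed its direction with the scaling and the tool, from 0.06 to -0.35 with limma-voom. There the median of all genes ranged from -0.04 to 0.19. Over all genes the edgeR test called 0% in males and 0% in females, with 418 and 343 genes at an unadjusted p under 0.05, 0 and 1 called by DESeq2 and 0 by limma-voom. These, too, are descriptions for the 5 genes.

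Between the sexes, hgo and CG6188 were higher in male than in female heads on RD. The log2 difference of males over females was 1.03 (SE 0.18, adjusted p = 0.0243 in edgeR's quasi-likelihood test) for hgo and 4.58 (SE 0.41, adjusted p = 0.00398) for CG6188. These were 2 of the 5 genes called, beside 7.76% of all genes. Hn and CG3999 had lower values in males, -0.59 (SE 0.17, adjusted p = 0.0838 in edgeR) and -0.83 (SE 0.22, adjusted p = 0.0687), and neither passed. CG11796 was at 0.10 (SE 0.25, adjusted p = 0.817 in edgeR). The call of CG6188 stood in 12 of 12 alternatives, whereas that of hgo stood in 8 of 12 and was lost without male head RD 2 (adjusted p = 0.0619 in edgeR), male head RD 3 (0.0993), female head RD 2 (0.126) or female head RD 3 (0.0973). Without male head RD 1, Hn and CG3999 passed as well (adjusted p = 0.00268 and 0.0176 in edgeR).

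In heads on HFD the only 1 of the 5 genes to pass was CG3999, lower in males by a log2 difference of -2.77 (SE 0.48, adjusted p = 0.0489 in edgeR), beside 1.78% of all genes. Each of its 3 male libraries (1.08 to 4.35 CPM) was below each female library (16.2 to 18.5 CPM). These male libraries also entered the diet contrast that chose the gene. The call stood in 5 of 12 alternatives and was lost without male head HFD 4 (adjusted p = 0.22 in edgeR), female head HFD 2 (0.228), 3 (0.217) or 4 (0.188), with total counts as the scaling (0.075), without the filter on low counts (0.0517) or with the replicate number as an added term, a block (0.0671). CG6188 was at 3.29 (SE 0.91, adjusted p = 0.128 in edgeR), Hn at -1.21 (SE 0.23, adjusted p = 0.0636), hgo at 0.82 (SE 0.20, adjusted p = 0.113) and CG11796 at -0.59 (SE 0.42, adjusted p = 0.384). Without male head HFD 2 the values were 1.77 for CG6188 (adjusted p = 0.0263 in edgeR), -1.42 for Hn (0.00655) and 0.84 for hgo (0.0251). Without male head HFD 3 Hn was at -1.08 (adjusted p = 0.0387 in edgeR). The median of all genes ranged from -0.14 to 0.02 over 5 scalings, and relative to it CG3999 was at -2.89 to -2.72 and Hn at -1.22 to -1.18.

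In bodies on RD all 5 genes were higher in males, where 84.4% of all genes were called in one direction or the other. The log2 difference of males over females was 0.87 (SE 0.20, adjusted p = 0.00241 in edgeR) for Hn, 1.55 (SE 0.17, adjusted p = 1.92e-05) for CG11796 and 2.50 (SE 0.15, adjusted p = 2.82e-07) for hgo. It was 1.40 (SE 0.48, adjusted p = 0.0213 in edgeR) for CG3999 and, as a description, 7.61 (SE 0.41) for CG6188. The male RD libraries behind the value of CG3999 also entered the diet contrast that chose the gene. The median of all genes lay at 0.40, and relative to that median, over 5 ways of scaling, Hn was at 0.46 to 0.47, CG11796 at 1.15 to 1.18, hgo at 2.08 to 2.10, CG6188 at 7.17 to 7.21 and CG3999 at 0.74 to 1.0. The call of CG3999 was lost without male body RD 2 (0.68, adjusted p = 0.11 in edgeR) or female body RD 4 (1.15, adjusted p = 0.0848), with limma-voom (1.15, adjusted p = 0.0821) or with the replicate block (1.08, adjusted p = 0.181), and those of Hn, CG11796 and hgo stood in 12 of 12 alternatives.

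In bodies on HFD, where 75.6% of all genes were called, Hn, hgo and CG6188 were higher in males and CG3999 was lower. The log2 differences were 0.63 (SE 0.14, adjusted p = 0.00429 in edgeR) for Hn, 2.03 (SE 0.23, adjusted p = 0.000123) for hgo and, as a description, 7.27 (SE 0.39) for CG6188. CG3999 was at -0.78 (SE 0.30, adjusted p = 0.0468 in edgeR), with 3.89 to 6.98 CPM in males and 7.16 to 9.96 CPM in females, and its call was lost without any 1 of 5 of the 6 libraries (-0.90 to -0.52, adjusted p of 0.0577 to 0.194), male body HFD 2 being the exception. It was also lost with DESeq2 (-0.63, adjusted p = 0.0533), size factors by relative log expression, RLE (-0.63, 0.0674), and the replicate block (-0.83, 0.0707). CG11796 was at 0.78 (SE 0.34, adjusted p = 0.0713 in edgeR), and passed with DESeq2 (0.95, adjusted p = 0.0129), RLE size factors (0.95, 0.0312) and the block (0.88, 0.0302). The median of all genes was 0.23. Relative to it CG3999 was at -1.03 to -1.01 over 5 scalings, so that on RD this gene was higher in male bodies and on HFD in female bodies. That reversal contains the diet contrast and is the interaction given above. The values of CG3999 on RD and on HFD themselves rest on male libraries that entered the choice of the gene.

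Male and female bodies also differed in tissue markers. On RD the 3 oenocyte markers summed to 18668 to 30840 CPM in male and 4650 to 7088 CPM in female bodies, the tubule markers to 610 to 654 and 314 to 355 CPM, and the fat body markers to 2568 to 3787 and 1414 to 2413 CPM. The median log2 difference of males over females was 2.02 for the oenocyte markers (3 of 3 called higher), 1.24 for the tubule markers (4 of 6 higher, 1 lower) and 1.40 for the fat body markers (5 of 7 higher). Among the 5 genes, hgo (2.50) and CG6188 (7.61) were above these 3 medians and Hn (0.87) was below them. The testis and accessory gland markers had medians of 14.9 and 16.4 (4 of 4 called higher in each), above the values of all 5 genes. The ovary markers had a median of -6.87 (4 of 4 called lower). The photoreceptor markers had a median of 4.68 (5 of 6 called higher), with 2387 CPM in male body RD 3. The flight muscle markers were also higher in male bodies on RD (median 1.69, 4 of 4 called). The midgut markers had a median of -1.26 there, with 4 of 7 called lower and 1 higher. In heads on RD the fat body markers summed to less in males than in females (2753 to 4259 against 5386 to 8375 CPM). Of these, 4 of 6 tested were lower in males, with 1 called lower and 1 called higher. The part of tissue composition in the sex differences was not tested.

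The neighbours in the tyrosine branch did not all differ between the sexes in the same direction. In bodies on RD, Faa (2.21, SE 0.13, adjusted p = 1.61e-07 in edgeR), GstZ2 (1.82, SE 0.18, adjusted p = 8.24e-06) and CG1461 (1.18, SE 0.12, adjusted p = 7.65e-06) were higher in males, and GstZ1 was lower (-1.0, SE 0.17, adjusted p = 0.000319). Of the 45 other pathway genes 22 were called higher in males and 13 lower on RD, and 11 higher and 12 lower on HFD. Of all genes, 49.3% and 43.1% were called higher on RD and HFD, and 84.4% and 75.6% in either direction. The largest differences on RD were those of Trh (neuronal tryptophan hydroxylase, 2.61), CG8665 (10-formyltetrahydrofolate dehydrogenase, 2.59) and KFase (kynurenine formamidase, 2.51) among the higher, after which came Faa. Among the lower they were Ahcy13 (adenosylhomocysteinase, -3.18), Cbs (cystathionine beta-synthase, -2.41), Pcd (pterin-4a-carbinolamine dehydratase, -2.32) and CG3011 (serine hydroxymethyltransferase, -1.95). The same 8 genes led on HFD, with Trh at 2.13 and Ahcy13 at -3.35. In heads on RD 1 of 45 was higher in males (Trh, 0.42) and 5 were lower, led by CG7560 (methylenetetrahydrofolate reductase, -1.48), CG6415 (-1.42), b (-1.27) and CG11899 (phosphoserine aminotransferase, -1.08). In heads on HFD 4 were lower and 0 higher, namely CG10621 (-2.96), CG7560 (-1.94), yellow-f (-1.61) and ppl (-1.30). Of all genes in heads, 7.76% were called on RD and 1.78% on HFD in either direction. At an unadjusted p under 0.05 in edgeR there were 18 of 45 in heads on HFD, beside 25.3% of all genes. DESeq2 called 14 lower and 0 higher, beside 1099 of all 10281 genes.

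**Figure D4:**
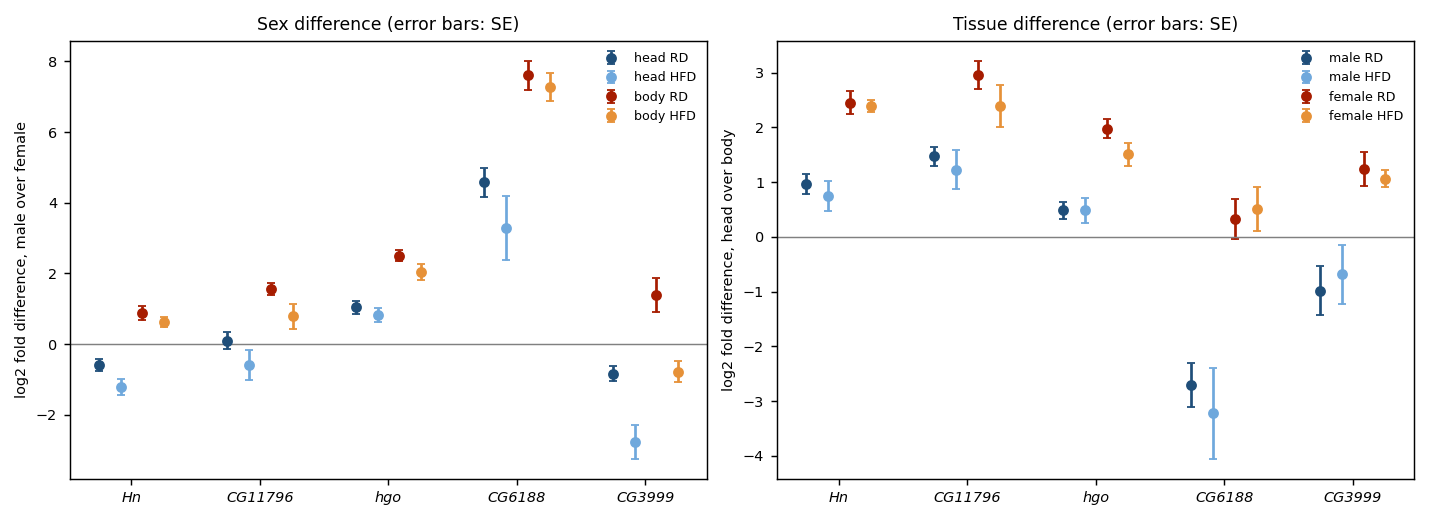
Log2 fold difference of males over females (left) and of heads over bodies (right) for the 5 genes, with the SE from the model as error bars. CG6188 stands at 7.61 and 7.27 between male and female bodies and lies furthest toward the body in males (-2.70 and -3.22), whereas CG11796 (2.96 and 2.40) and Hn (2.45 and 2.39) lie furthest toward the head in females.

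Between tissues, Hn and CG11796 were higher in heads in each sex and on each diet, and CG6188 was lower in male heads. In males on RD the log2 difference of heads over bodies was 0.97 (SE 0.19, adjusted p = 0.00204 in edgeR) for Hn, 1.47 (SE 0.17, adjusted p = 0.000112) for CG11796 and 0.48 (SE 0.16, adjusted p = 0.0241) for hgo. CG6188 was lower in heads by -2.70 (SE 0.40, adjusted p = 0.000436 in edgeR), and CG3999 was at -0.98 (SE 0.45, adjusted p = 0.0802). These were 4 of 5 called, beside 73.5% of all genes. The call of hgo was lost without male body RD 1 (adjusted p = 0.0553 in edgeR), male head RD 2 (0.0743) or male head RD 3 (0.0932). Without male body RD 3, the library with photoreceptor RNA, CG3999 was at -1.15 (adjusted p = 0.0236 in edgeR), and without male body RD 2 at -0.28 (0.34).

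In males on HFD, Hn (0.75, SE 0.27, adjusted p = 0.0457 in edgeR) and CG11796 (1.23, SE 0.36, adjusted p = 0.0195) were higher and CG6188 lower (-3.22, SE 0.83, adjusted p = 0.0110) in heads, and 63.3% of all genes were called. The values of hgo (0.49, SE 0.23, adjusted p = 0.103 in edgeR) and CG3999 (-0.68, SE 0.54, adjusted p = 0.310) did not pass. The call of Hn was lost without any 1 of 5 of the 6 libraries (adjusted p of 0.111 to 0.161 in edgeR), male head HFD 3 being the exception, and that of CG11796 without any male body library or male head HFD 4 (0.056 to 0.0916). CG3999 was at -1.43 (adjusted p = 0.0279 in edgeR) once male head HFD 2 was left out. With the replicate number as a block in edgeR, 2 of the 5 genes were called higher in heads and 1 lower, as without it.

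In females 4 of the 5 genes were higher in heads on each diet, beside 86.9% of all genes called on RD and 85.3% on HFD. On RD the log2 differences were 2.45 (SE 0.21, adjusted p = 7.08e-06 in edgeR) for Hn, 2.96 (SE 0.26, adjusted p = 8.45e-06) for CG11796, 1.98 (SE 0.17, adjusted p = 6.50e-06) for hgo and 1.24 (SE 0.31, adjusted p = 0.00515) for CG3999. On HFD they were 2.39 (SE 0.11), 2.40 (SE 0.38), 1.51 (SE 0.22) and 1.06 (SE 0.15) in the same order, and all 8 calls stood in 12 of 12 alternatives. CG6188 was at 0.33 (SE 0.37, adjusted p = 0.412 in edgeR) and 0.50 (SE 0.40, adjusted p = 0.264). The median of all genes was -0.18 in males and -0.10 in females on RD and 0.03 and -0.08 on HFD, and other scalings moved it between -0.26 and 0.03, with no change of direction among the 5 genes.

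Among the other pathway genes, 18 of 45 were higher and 10 lower in male heads than in male bodies on RD. Of all genes, 30.7% were called higher there and 73.5% in either direction. On HFD 14 were higher and 4 lower, beside 29.3% and 63.3% of all genes. They were 17 and 13 in edgeR with a block for the replicate number, which was taken to pair these heads and bodies. In females 28 were higher and 14 lower on RD, beside 41.3% and 86.9%, and 27 and 12 on HFD, beside 40.6% and 85.3%. The largest differences among the higher ones were those of Trh at 2.84 and 5.08, Ddc at 2.58 and 4.52 and Pu (GTP cyclohydrolase I, which makes the pterin precursor of the cofactor of Hn) at 2.77 and 4.32 in males and females on RD. Tdc2 (tyrosine decarboxylase) at 2.79 in males and e (ebony) at 3.92 in females completed them. On HFD they were Pu (3.88), Tdc2 (3.39), Ddc (3.34) and Trh (3.05) in males and Trh (4.84), Ddc (4.45), Pu (4.21) and e (3.47) in females. Lower in heads were CG8665 (-1.75), Alas (-1.36), CG10623 (-1.33) and b (-1.32) in males and Ahcy13 (-2.75), Eip55E (-1.70), Cbs (-1.16) and Sam-S (-1.15) in females on RD. On HFD the lower ones were led by CG8665 (-2.59), ppl (-1.16), CG6950 (-1.07) and CG10623 (-0.99) in males and by Ahcy13 (-2.67) in females. CG1461 was higher in heads by 1.73 (SE 0.18) in males and 3.24 (SE 0.15) in females on RD, and ppl was lower in male heads (-1.06, SE 0.20) and higher in female heads (0.51, SE 0.15).

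A comparison of the sex difference in bodies with that in heads was added after the levels had been seen. Its adjusted p-values are therefore not those of a test planned beforehand. Males gained on females from head to body for all 5 genes. On RD the difference of the differences was 1.09 (SE 0.28) for Hn, 1.09 (SE 0.32) for CG11796, 1.08 (SE 0.27) for hgo, 2.67 (SE 0.59) for CG6188 and 1.84 (SE 0.61) for CG3999. Hn, CG11796, hgo and CG3999 were called by edgeR with adjusted p of 0.00354 to 0.0184, beside 65.1% of all genes. The value of CG6188 on either diet contains the body difference that was known beforehand, so it is a description and no independent result. On HFD the difference of the differences was 2.04 (SE 0.28), 1.56 (SE 0.59), 1.42 (SE 0.31), 4.12 (SE 1.07) and 2.14 (SE 0.59) in the order of the values on RD. Hn, CG11796, hgo and CG3999 were called again, beside 47.4% of all genes. The median of all genes was 0.13 on RD and 0.54 on HFD and moved to 0.69 and 0.56 with DESeq2. Relative to the median, the values over 5 scalings on RD were 0.91 to 0.95 for Hn, CG11796 and hgo together, 1.44 to 1.71 for CG3999 and 2.50 to 2.54 for CG6188. On HFD they were 0.83 to 0.88 for hgo, 0.98 to 1.12 for CG11796, 1.48 to 1.51 for Hn, 1.59 to 1.75 for CG3999 and 3.56 to 3.98 for CG6188.

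Within a condition, the genes varied from pool to pool in unlike ways. Over the 24 libraries with the mean of each condition subtracted, the gene most like CG11796 among 10456 genes with a mean of at least 5 CPM was CG1461, the enzyme directly before it (r = 0.894, and 0.880 without the male HFD 2 libraries). The correlation was 0.964 over the 12 male and 0.873 over the 12 female libraries. CG1461 had replicate number 3 lowest in 3 of the 4 female conditions, and the points share their library, its depth and its tissue pieces. The next genes were melt (0.866) and CG12206 (0.823). For Hn they were CG16704 (0.866), glob1 (0.841) and CG2736 (0.832), for hgo CG13905 (0.803), salm (0.757) and Treh (0.704), and for CG3999 GstE9 (0.892), Cyp12c1 (0.875) and CG9485 (0.860). For CG6188 they were magu (0.913), CG16743 (0.908) and RPA3 (0.888), which were 0.740, 0.784 and 0.746 without the male HFD 2 libraries. Among the 5 genes themselves the highest values were 0.680 for CG6188 and CG3999, which was 0.463 without the male HFD 2 libraries, 0.814 over the male and 0.0984 over the female libraries, and 0.571 for CG11796 and hgo, which was 0.915 over the female and -0.33 over the male libraries.

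**Figure D5:**
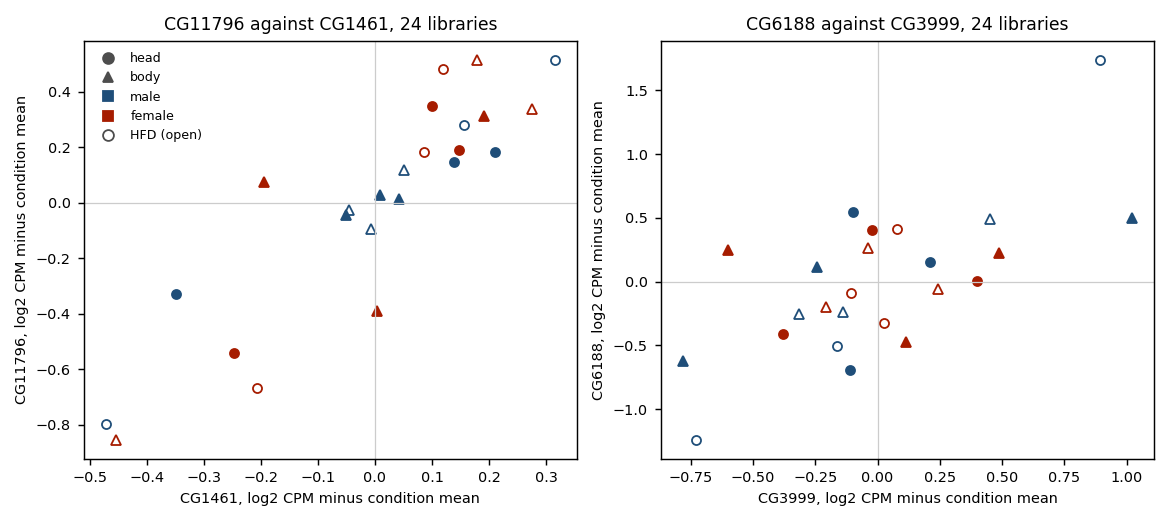
Log2 CPM minus the mean of the condition in each of the 24 libraries, for CG11796 against CG1461 (left, r = 0.894) and CG6188 against CG3999 (right, r = 0.680). Circles are heads, triangles bodies, blue males, red females, filled RD and open HFD. The highest point on the right side is male head HFD 2.

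Over the 8 condition means, which share diet, sex and tissue, the most similar genes were CG9336 (r = 0.997) for Hn, CG7724 (0.989) for CG11796, CG9921 (0.971) for hgo, brv3 (0.968) for CG6188 and CG15922 (0.964) for CG3999. With 8 points and 10456 genes, such values are given as a description only. With total counts as the scaling the first gene was another for 4 of the 5, namely CG2064 for Hn, CG9444 for CG11796, CR44644 for hgo and CG30424 for CG6188. Within conditions the first gene then became glob1 for Hn, salm for hgo and CG16743 for CG6188. Hn was followed by CG31676 and cv-d, CG11796 by PGRP-SD and Cpr100A, hgo by CG15706 and CG6766, CG6188 by CG6852 and pigeon, and CG3999 by CG1544 and CG17190.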

How the data were processed

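The authors deposited raw read counts per gene, without normalization, in 2 tables (males, females) that also hold gene lengths. Their methods describe stranded mRNA libraries, paired-end HiSeq2500 runs and alignment by TopHat to the Illumina iGenome index, and the annotation file they name is one of mouse. The submitters' processing notes name featureCounts and genome build dm6, and the counting settings are not given in the sources used here. The exons of the 5 genes in the Ensembl annotation of that build add up to the deposited lengths.

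The 5 genes, the lists of connected pathways and tissue markers, and the tests were chosen with earlier results of these data known. Comparisons within 6 libraries (or 12 for interactions) were fitted on all genes with edgeR 4.0.16 in R 4.3.3 (glmQLFit and glmQLFTest, TMM, filterByExpr at 10 counts and a total of 15), with Benjamini-Hochberg adjustment over all genes tested and a threshold of 0.05. Differences are on the log2 scale, and their SE is the size divided by the root of the F statistic. CPM used TMM over all 24 libraries, and 0.5 was added before log2 for correlations. Depth limits the precision of low counts, as for CG6188 in females. The code was tested on simulated data. Every column was matched to a sample.

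The text names the 5 genes, pathway genes past the threshold in a diet comparison, up to 4 pathway genes per direction with the largest differences past it in sex and tissue comparisons, the enzymes next to the 5 genes, and the 3 genes most like each in pattern; pathway genes whose diets did not overlap, the examples of a list and the markers were named beyond this rule, after their values were seen. Alternatives were DESeq2 1.42.0, limma-voom (limma 3.58.1), size factors by relative log expression (RLE), total counts only, no filter on low counts, the replicate number as a block, and each library left out. Added after seeing the data were the comparison of sex differences between tissues and the counts without the male HFD 2 libraries. Same-numbered heads and bodies deviated together from their group means in males on HFD (r of 0.296 to 0.761) and in females on HFD (0.116 to 0.198), with each library most like its own number in 3 of 3 pairs, so the numbers were taken to pair these and no others. Promoter and protein sequences were not used here. Figures were drawn with matplotlib 3.10.9.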

Additional observations from a re-analysis of the deposited data

Results flagged for a closer look

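The sex difference of Hn, CG11796, hgo and CG3999 differed between heads and bodies by the interaction test of edgeR, on both diets. This comparison was added after the levels had been seen, so its adjusted p-values are not those of a planned test. The libraries in it, on both diets, also entered the choice of the genes. For CG6188 the difference in bodies was known beforehand, and its values are descriptions. Of all genes, 65.1% were called on RD and 47.4% on HFD. On RD the body difference of males over females exceeded that of heads by 1.09 on the log2 scale for Hn, 1.09 for CG11796, 1.08 for hgo, 2.67 for CG6188 and 1.84 for CG3999. On HFD it did so by 2.04 for Hn, 1.56 for CG11796, 1.42 for hgo, 4.12 for CG6188 and 2.14 for CG3999. Of these, CG11796 on HFD was called in 6 of 18 alternatives (adjusted p of 0.00378 to 0.194), hgo on HFD in 17 of 18, lost without female body HFD 3 (0.82, adjusted p = 0.0641 in edgeR), and CG3999 on RD in 17 of 18, lost without female head RD 3 (1.62, adjusted p = 0.0507). The other values of Hn, CG11796, hgo and CG3999 were called in 18 of 18. On RD the oenocyte, tubule, fat body, flight muscle, photoreceptor, testis and accessory gland markers had higher medians in male than in female bodies. Midgut and ovary markers had lower ones. Fat body markers summed to less in male than in female heads on RD, where 4 of 6 were lower and 1 was called higher. Their part in these values was not tested.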

How the results depend on the processing

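Among the values called for the 5 genes, 0 changed sign under the alternatives run. Values of the 5 genes in diet comparisons moved by less than the pooled SD between replicates in 235 of 240 refits. Leaving out 1 of 3 libraries can hardly move a value by more than that SD, so this count does not measure stability. Single libraries moved CG6188 in male heads from -2.33 to -3.85 and CG3999 in male bodies from -2.15 to -1.37. The number of genes called over the whole table changed more. DESeq2 called 9 genes in male heads, 28 in male bodies, 15 in female heads and 7 in female bodies between the diets, and 1 gene for tissue by diet in females. Between the sexes it called 1642 in heads on RD and 1099 in heads on HFD, where edgeR called 788 and 183. With the replicate number as a block the counts were 2 in male heads, 16 in male bodies and 10 in female heads between the diets, and 3832 and 6 in heads on RD and HFD between the sexes. Without the filter on low counts, 2 genes were called in female heads between the diets. With any 1 library left out, the counts ranged from 0 to 2 in female bodies and 0 to 1 in female heads between the diets, 0 to 1 for sex by diet in bodies, 56 to 5093 for sex in heads on RD and 0 to 4338 for sex in heads on HFD. Under the block, Hn (-0.79) and CG3999 (-0.94) were called lower in male heads on RD, CG11796 (0.88) was called higher in male bodies on HFD, and the calls of CG3999 in heads on HFD (-2.97) and bodies (1.08 on RD, -0.83 on HFD) and of hgo between male heads and bodies on RD (0.48) were lost. DESeq2 called Hn (-0.57) and CG3999 (-0.82) lower in male heads on RD, and on HFD Hn (-1.18) lower and hgo (0.86) and CG6188 (3.30) higher. Outside the 2 comparisons of heads with bodies on HFD the numbers were not taken to pair libraries, since at least 1 pair correlated at 0.1 or less. Between the diets in female heads, numbers 3 and 4 correlated at 0.437 and 0.344 and number 2 at -0.01. In males on HFD, Hn lost its call between tissues with RLE (0.55), total counts (0.46) or no filter (0.40), and CG11796 with total counts (0.97) or no filter (0.89). Depth limits CG6188 in females, with 9 to 49 counts a library.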
